A study of Mus musculus with 17 samples.

Results

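The genes described here code for 7 subunits of the GABA-A receptor: Gabra2, Gabra3, Gabra4 and Gabra5 (alpha subunits), Gabrb1 and Gabrb2 (beta subunits) and Gabrd (the delta subunit). They were found by symbol, 7 of 52636 genes of the single-cell table and 7 of 28692 genes of the spot table, and they are part of a family of 19 GABA-A receptor genes. They were measured in neurons harvested by hand from acute slices through the anterior thalamic nuclei of wild-type (WT) B6 mice, and in 3 Visium sections of WT mouse brain. In Visium, RNA is captured on the spots of a slide, and the tissue over 1 spot can hold several cells. No treatment, age or second genotype was named in the labels. Of 1216 wells with an animal number, 912 had at least 1000 genes with a count, and 904 cells were kept, of which 877 were neurons from 3 animals. The sections were labelled posterior (section 2 and section 6) and anterior (section 5) and held 7827 spots.

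GABA-A receptors are chloride channels of 5 subunits that open when GABA binds. The alpha subunit sets much of the receptor's drug sensitivity and its place in the membrane. In thalamic relay neurons, receptors with alpha-4 and delta subunits lie outside synapses and carry a lasting (tonic) inhibitory current, whereas receptors with a gamma subunit serve the synapses from the reticular thalamic nucleus. Neurons of the reticular nucleus, which are GABA neurons themselves, are known for alpha-3, and hippocampal pyramidal neurons for alpha-5.

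Members of the family lie in groups on the genome (RefSeq, GRCm38.p6). Gabra2 spans chromosome 5 from 70958392 to 71095849, Gabra4 from 71569734 to 71658308 and Gabrb1 from 71657921 to 72149572 on the same chromosome. Gabra3 lies on chromosome X (72432676 to 72656919), Gabra5 on chromosome 7 (57407669 to 57591016), Gabrb2 on chromosome 11 (42419515 to 42632591) and Gabrd on chromosome 4 (155384979 to 155398098). The gene bodies of Gabra4 and Gabrb1 share 388 bases, and 6000 bases of Gabrd lie within Cfap74. Whether the counting used strand is not given in the sources used here, so reads in these shared stretches cannot be told apart. Gabra2 and Gabra3 were the members whose levels separated the neuron clusters most, and the 250 bases before their annotated starts are printed 5′ to 3′ on the strand of the gene, with matches to the searched motifs in capitals.
Gabra2 (chr5:71095850-71096099, minus strand): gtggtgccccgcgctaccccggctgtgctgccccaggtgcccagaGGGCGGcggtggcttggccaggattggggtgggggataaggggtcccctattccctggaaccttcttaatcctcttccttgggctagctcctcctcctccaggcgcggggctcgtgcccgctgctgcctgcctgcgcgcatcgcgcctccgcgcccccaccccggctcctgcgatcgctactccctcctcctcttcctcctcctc
Gabra3 (chrX:72656920-72657169, minus strand): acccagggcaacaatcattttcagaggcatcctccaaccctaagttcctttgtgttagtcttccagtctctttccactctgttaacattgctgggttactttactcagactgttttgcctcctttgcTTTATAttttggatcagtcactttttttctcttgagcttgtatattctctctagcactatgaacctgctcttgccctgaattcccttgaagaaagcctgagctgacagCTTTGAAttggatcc
The Gabra2 stretch had a GC content of 70.0% and the Gabra3 stretch 42.4%, against a median of 52.4% over 32851 promoters of the table (10th to 90th percentile 38.8 to 69.2%). Of 8 motifs searched on both strands (the TATA box TATAAA, the GC box GGGCGG, the E-box CAGCTG, the E-box form CACGTG, the cAMP response element TGACGTCA, the EGR site GCGTGGGCG and the TCF/LEF cores CTTTGAA with the related form CTTTGAT), the Gabra2 stretch held GGGCGG alone, at -205 from the start. The Gabra3 stretch held TATAAA on the other strand at -123, in capitals as read on the gene's strand, and CTTTGAA at -15. Gabra3 has another annotated start, from which the same matches lie at -235 and -127. The stretch before that start is not printed and had a GC content of 39.2%. GGGCGG occurred in 32.7%, TATAAA in 12.4% and CTTTGAA in 4.46% of all promoters of that length. These matches describe letters and are not evidence of binding.

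The 3 animals gave 103, 328 and 473 cells with median counts per cell of 49798, 8845 and 50474, so animal 2 was the shallowest. The sections held 26032042 counts (section 2), 13788407 (section 5) and 18582120 (section 6). Neurons were clustered without the GABA-A receptor genes, and 4 clusters with at least 5 cells in each animal (846 cells) were tested. Cluster 1 (409 cells) was led by Car4, Npsr1 and Ccdc141, cluster 2 (244 cells) by Tnnt1, Adgrg6 and Calb1, cluster 3 (150 cells) by Calb2, Lypd1 and Necab1, and cluster 4 (43 cells) by C1ql2, Acta2 and Sncg. The summed level of 12 markers of glutamatergic thalamic neurons lay between 2766 and 6040 CPM (the counts-per-million scale) in every animal of clusters 1 to 4, with 11 or 12 of the 12 detected. Cluster 4 held only 5 and 9 cells from animals 1 and 2. In animal 3 its summed level of 6 pericyte and smooth muscle markers was 1345 CPM, against 0 and 6.20 CPM in animals 1 and 2, and 4 of its cells carried those markers.

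Levels are given as CPM of the counts summed over the cells of a cluster in 1 animal, and differences as log2 fold changes with their standard errors (SE) from edgeR's quasi-likelihood test. An adjusted p under 0.05 (Benjamini-Hochberg over 11777 genes) was called. Among the 4 tested clusters, Gabra2 was lowest in cluster 1, and Gabra3 was near 0 in clusters 1 and 4.

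Gabra2 (alpha-2, a synaptic subunit that is enriched at the axon initial segment of cortical principal neurons) had 24.9, 3.09 and 10.4 CPM in animals 1, 2 and 3 in cluster 1. It had 93.7, 48.0 and 109.9 CPM in cluster 2, 182.5, 93.8 and 189.0 CPM in cluster 3, and 189.9, 68.2 and 94.8 CPM in cluster 4. Every animal's value in cluster 1 lay below every value in the other 3 clusters, while the ranges of clusters 2, 3 and 4 overlapped. Gabra2 fell in cluster 1 against the mean of the other clusters by 3.36 on the log2 scale (SE 0.40, adjusted p = 0.000524), and rose in cluster 3 (log2 fold change 1.68 ± 0.30 SE, adjusted p = 0.0121). Its rise in cluster 4 was smaller (1.11 ± 0.32 SE, adjusted p = 0.0411) and came where the median over all genes was -0.21. Without the animal block neither rise passed the threshold (adjusted p = 0.0992 in cluster 3 and 0.103 in cluster 4), and the rise in cluster 4 was also lost without the filter on low counts (adjusted p = 0.0577). In the pairs, Gabra2 was lower in cluster 1 than in cluster 2 (-2.95, adjusted p = 0.00509), cluster 3 (-3.78, adjusted p = 0.000542) and cluster 4 (-3.35, adjusted p = 0.000633).

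Gabra3 (alpha-3) had 48.2, 21.3 and 24.9 CPM in cluster 2 and 55.1, 29.8 and 22.9 CPM in cluster 3. In cluster 1 it had 1.28, 1.24 and 0.166 CPM, from 8 counts in all, and in cluster 4 it had 0, 0 and 1.18 CPM, from 4 counts in all. The exact Poisson 95% upper limit for the count of 0 in cluster 4 was 5.89 CPM in animal 1 and 22.9 CPM in animal 2. The limit in animal 2 lies above the lowest value of cluster 2, 21.3 CPM. The ranges of clusters 2 and 3 overlapped each other and lay above those of clusters 1 and 4. Gabra3 rose in cluster 2 (3.40 ± 0.67 SE, adjusted p = 0.00734) and in cluster 3 (3.51 ± 0.67 SE, adjusted p = 0.0188). Its differences in cluster 1 (-3.83 ± 0.97 SE, adjusted p = 0.0897) and cluster 4 (-3.08 ± 1.06 SE, adjusted p = 0.0826) did not pass the threshold. By pairs, Gabra3 was lower in cluster 1 than in clusters 2 (-5.42, adjusted p = 0.0287) and 3 (-5.51, adjusted p = 0.0175), and higher in clusters 2 (4.86, adjusted p = 0.0113) and 3 (4.94, adjusted p = 0.0291) than in cluster 4. With so few counts on the low side, the size of these fitted differences depends on the small count that the model adds.

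Gabra4 (alpha-4), the alpha subunit of the extrasynaptic receptors, had 811.8, 909.4 and 821.6 CPM in cluster 1. It had 561.7, 561.9 and 580.7 CPM in cluster 2, 270.9, 466.1 and 330.9 CPM in cluster 3, and 726.1, 371.8 and 381.9 CPM in cluster 4. Cluster 1 lay above the other clusters in all animals, and the ranges of clusters 2 and 4 and of clusters 4 and 3 overlapped. Gabra4 rose in cluster 1 (0.85 ± 0.19 SE, adjusted p = 0.0459) and was higher there than in cluster 3 (1.28, adjusted p = 0.0201). The rise in cluster 1 was lost with median-of-ratios scaling (0.82, adjusted p = 0.0536). Its difference in cluster 3 was -0.86 ± 0.21 SE (adjusted p = 0.0833). So Gabra4 and its chromosome 5 neighbour Gabra2 differed in opposite directions in cluster 1.

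Gabrd (delta), which joins alpha-4 in those receptors, had 449.9, 395.7 and 467.3 CPM in cluster 1 and 202.6, 327.2 and 249.4 CPM in cluster 2. In cluster 3 it had 51.7, 232.3 and 200.5 CPM, and in cluster 4 194.7, 477.1 and 501.0 CPM. Animal 1 was the lowest of the 3 animals in clusters 2, 3 and 4 but not in cluster 1. Against the mean of the others no cluster passed the threshold (cluster 1 0.92 ± 0.27 SE, adjusted p = 0.168, and cluster 3 -1.32 ± 0.31 SE, adjusted p = 0.0597). In the pairs, Gabrd was higher in cluster 1 than in cluster 3 (1.68, adjusted p = 0.0342) and lower in cluster 3 than in cluster 4 (-1.40, adjusted p = 0.0455). Both of these calls were lost without the animal block (adjusted p = 0.124 and 0.103). The difference of cluster 3 from the others did pass with DESeq2 (-1.35, adjusted p = 0.000865), median-of-ratios scaling (adjusted p = 0.0454), no filter (adjusted p = 1.63e-06), split counts (adjusted p = 0.0244) and without animal 1 (-0.93, adjusted p = 7.75e-06). That of cluster 1 passed with no filter (adjusted p = 0.000109), split counts (adjusted p = 0.0457) and without animal 1 (0.47, adjusted p = 0.0198), and that of cluster 4 without animal 1 (0.79, adjusted p = 1.8e-05).

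The other 3 members did not pass the threshold in any cluster or pair. Gabra5 (alpha-5) had means of 15.2 ± 4.85 CPM in cluster 1, 15.7 ± 4.49 in cluster 2, 47.3 ± 24.4 in cluster 3 and 38.7 ± 22.3 in cluster 4 (SD, n = 3 animals), and the lowest value of clusters 3 and 4 lay above the highest of clusters 1 and 2. Gabrb1 (beta-1) had means of 487.5 ± 63.4, 400.9 ± 23.5, 385.7 ± 67.6 and 452.6 ± 90.4 CPM in clusters 1 to 4. Its ranges overlapped between all clusters but 1 and 2, where the lowest animal of cluster 1 (440.0 CPM) lay above the highest of cluster 2 (417.9 CPM). Gabrb2 (beta-2, a partner of alpha-4 in the thalamus) had means of 60.6 ± 7.03, 60.5 ± 11.5, 41.0 ± 28.6 and 45.9 ± 37.0 CPM. Animal 1 was low for Gabrb2 in clusters 3 (10.3 CPM, against 67.0 and 45.7 CPM in animals 2 and 3) and 4 (3.19 CPM, against 68.2 and 66.5 CPM).

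**Figure D1:**
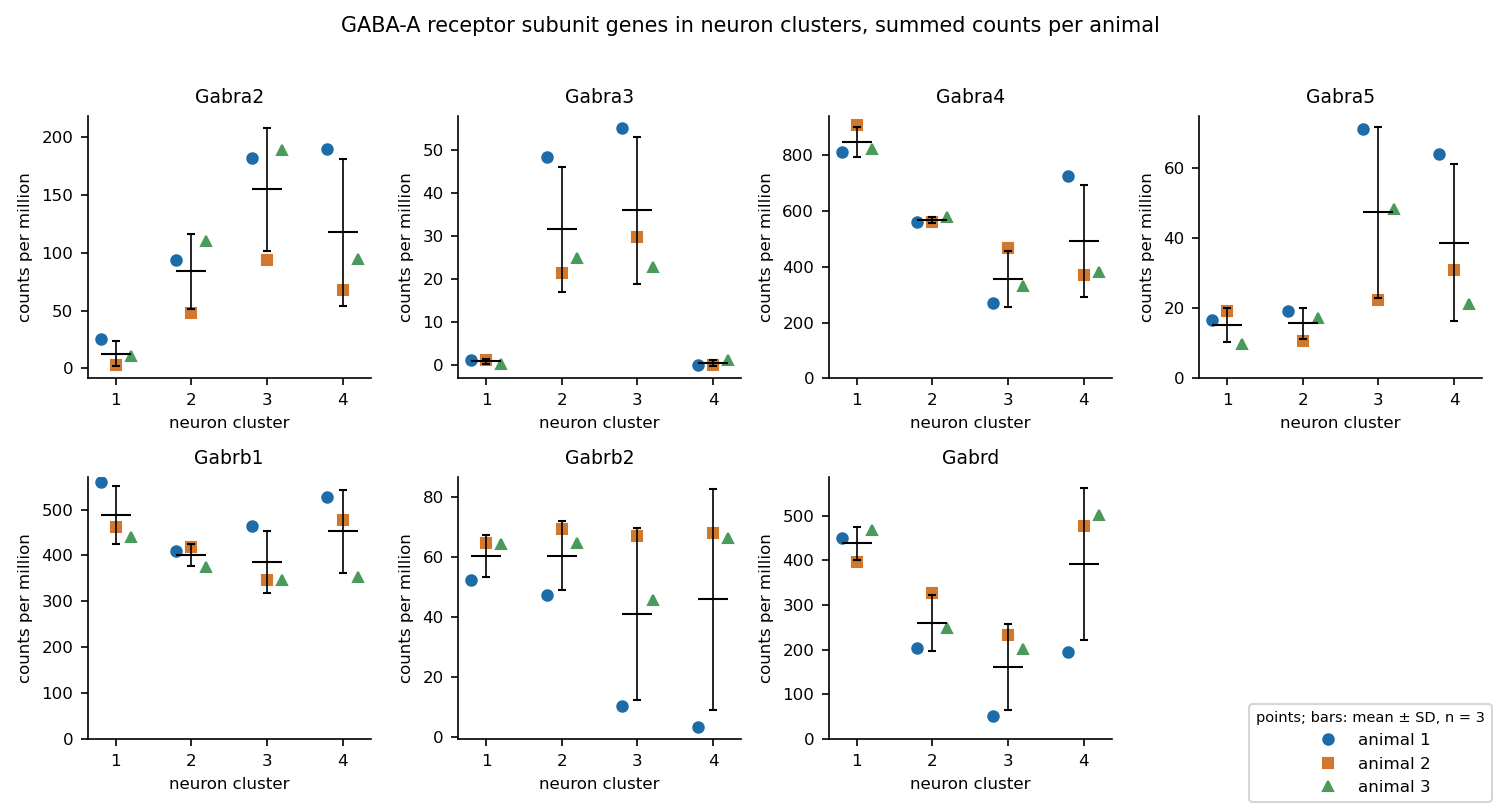
Summed level of each subunit gene (CPM, vertical axis) in neuron clusters 1 to 4 (horizontal axis), with 1 point per animal and bars for the mean and SD of 3 animals. Gabra2 is lowest in cluster 1 (12.8 CPM on average), Gabra3 is near 0 in clusters 1 and 4, and Gabra4 is highest in cluster 1 (847.6 CPM on average).

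In all, members rose in 5 and fell in 1 of 28 comparisons of a cluster with the others. The share of all genes called in the same comparisons was 1.21% in cluster 1, where 2 of 7 members were called, and 1.01% in cluster 3, where 2 of 7 were called. It was 7.16% in cluster 2 and 10.3% in cluster 4, with 1 of 7 members called in each. In the pairs, members were higher in 4 and lower in 6 of 42 comparisons. The shares of all genes called were 0.62% for cluster 1 against 2 (2 of 7 members called), 1.13% for 1 against 3 (4 of 7), 5.87% for 1 against 4 (1 of 7), 2.46% for 2 against 3 (0 of 7), 13.9% for 2 against 4 (1 of 7) and 3.26% for 3 against 4 (2 of 7). These calls needed both animals 2 and 3 to pass the threshold: without animal 2, 1 of the 6 calls against the other clusters remained (Gabra2 in cluster 1), and without animal 3 none did, with Gabra2 in cluster 1 at -3.20 (adjusted p = 0.0746). The fold changes of the lost calls stayed near or above their size with 3 animals: Gabra3 was at 3.71 and 4.32 in cluster 2 and at 3.59 and 4.60 in cluster 3 without animals 2 and 3 in turn, Gabra4 at 0.85 and 0.83 in cluster 1, and Gabra2 at 1.54 and 1.53 in cluster 3 and at 0.98 and 1.29 in cluster 4. Without animal 1 all 6 remained and 7 more were made, 13 in all. The direction of all 6 was kept each time.

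Cells that carried markers of other types were counted in each cluster by a rule set after the data were seen (at least 3 markers of 1 type). They numbered 8 in cluster 1, 2 in cluster 2, 6 in cluster 3 (3 of them with GABA neuron markers) and 4 in cluster 4. In cluster 3 the summed level of 10 GABA neuron markers was 464.9, 221.9 and 256.7 CPM with 6 to 8 of 10 detected (Vip was at 0), against 22.2 to 189.3 CPM in cluster 1, 0.689 to 7.11 CPM in cluster 2 and 0 to 74.1 CPM in cluster 4. The 9 markers of the reticular nucleus, 7 to 9 of them detected, summed to 652.0, 303.8 and 362.9 CPM in cluster 3 and to 16.7 to 199.8 CPM in cluster 1, 9.89 to 42.7 CPM in cluster 2 and 1.60 to 63.2 CPM in cluster 4. Pvalb, Gad2, Sst and Gad1 are in both lists (107.3, 64.7, 49.0 and 43.4 CPM over all cells of cluster 3), so these sums are not independent. The cells of cluster 3 with other markers held 6.57% of its 1355 Gabra2 counts and none of its 205 Gabra3 counts. All 6 calls remained without the cells that carried other markers.

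The Gabra3 signal came from a minority of cells. In cluster 2, 53 of 244 cells held its 251 counts, with 55.0% of them in 5 cells, and in cluster 3 40 of 150 cells held 205 counts, with 55.6% in 5 cells. To compare clusters at equal depth, each cell was drawn down to 5000 counts, and 61 shallower cells of animal 2, 2 of animal 3 and 0 of animal 1 dropped out. Shares are given for Gabra2 and Gabra3, which were chosen after their levels had been seen. At that depth the share of cells with a Gabra2 count was 4.23 ± 4.12% in cluster 1, 26.0 ± 6.00% in cluster 2, 44.4 ± 6.00% in cluster 3 and 49.3 ± 26.6% in cluster 4 (SD, n = 3 animals). In the oligodendrocyte cluster 1 of 23 cells had a count, with a mean share of 5.56% over 2 animals (11.1% in animal 2 and 0 in animal 3). So few cells set no firm background for the 4.23% of cluster 1, which was below it at 5000 counts and above it unthinned and at 2000 counts (2.31% against 0 of 25 cells). That cluster also had 2221 to 2725 CPM of the thalamic neuron markers, so its cells were not free of neuronal RNA. The median counts per cell before thinning were 28967 in cluster 1, 26435 in cluster 2, 28634 in cluster 3, 111145 in cluster 4 and 25264 in the oligodendrocyte cluster. Without thinning, the Gabra2 shares were 12.9, 35.4, 63.1 and 63.3% in clusters 1 to 4 and 8.12% in the oligodendrocyte cluster. A Gabra3 count was seen in 7.24 ± 4.86% of thinned cells in cluster 2 and 8.11 ± 0.853% in cluster 3 (16 of 223 and 12 of 143 cells), and in 0 of 381 and 0 of 43 cells in clusters 1 and 4. Unthinned, the Gabra3 shares were 2.31, 25.3, 27.3 and 3.45%, with 3.57% in the oligodendrocyte cluster.

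**Figure D2:**
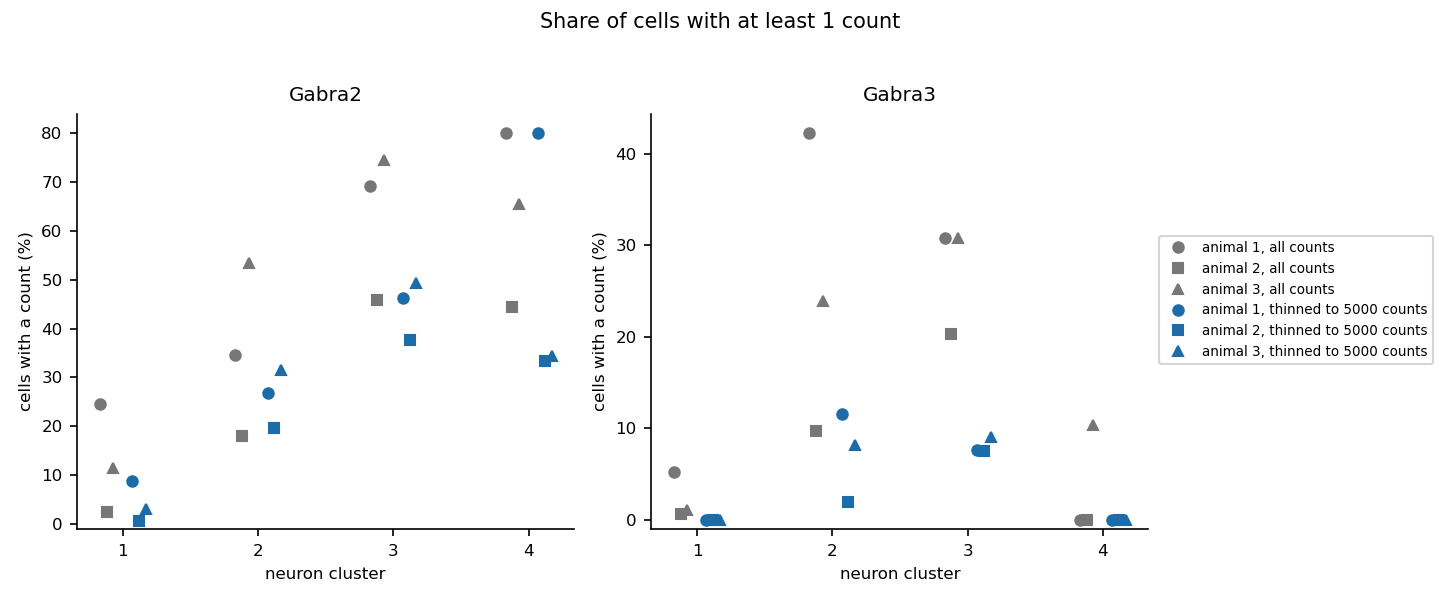
Percent of cells with at least 1 count (vertical axis) of Gabra2 and Gabra3 in neuron clusters 1 to 4, with 1 point per animal, grey for all counts and blue after thinning every cell to 5000 counts. In each animal the thinned Gabra2 share is lowest in cluster 1 (0.741 to 8.77%), and thinned Gabra3 counts appear in clusters 2 and 3 and not in clusters 1 and 4.

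The remaining clusters were described without a test. Cluster 5 (31 cells from animals 2 and 3, led by Lipe and Klkb1, unnamed) had means of 717.3 CPM for Gabra4, 464.5 CPM for Gabrb1 and 310.4 CPM for Gabrd, and 2 Gabra2 counts and 1 Gabra3 count in all. In the oligodendrocyte cluster (27 cells, with Mobp among its leading genes), 540 of the 618 Gabra4 counts lay in 5 cells. The 16 blank wells held no count of any member, 56 wells with spike-in RNA held 1, and 56 wells labelled qRNA held 8 among 4367024 counts.

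The sections placed the same genes among the regions around the thalamus. Spots were clustered into 12 regions, again without the GABA-A receptor genes, and 11 with spots in all sections were tested over 12796 genes. In spots, fewer cells of a type and less RNA per cell cannot be told apart. Nothing in the labels says that the sections came from separate mice, so these p-values measure the spread between sections, which may be technical. Region 7 (659 spots) was led by Shox2, Tcf7l2 and Gbx2 and had a summed thalamic marker level of 3518 to 3684 CPM with 12 of 12 markers detected, and is called the thalamic region.

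Gabra4 was the member with the clearest thalamic peak. It had 251.5, 243.8 and 241.6 CPM in sections 2, 5 and 6 in the thalamic region, and the next region, region 2 (with the striatal genes Penk and Pde10a among its leading genes), had 157.3, 144.9 and 130.0 CPM. The ranges of these regions did not overlap. Gabra4 rose in the thalamic region against the mean of the other regions (2.28 ± 0.08 SE, adjusted p = 6.29e-34) and also in regions 1, 2 and 4, and fell in regions 3, 5, 9, 10 and 11. Gabrd was highest in region 2, with 189.7, 178.0 and 173.0 CPM, above 142.6, 114.6 and 141.5 CPM in region 4 and 132.4, 103.6 and 157.2 CPM in the thalamic region. The ranges of region 4 and the thalamic region overlapped, and region 2 lay above both. Gabrd rose in region 2 and in the thalamic region (2.05 ± 0.09 SE, adjusted p = 1.27e-28, and 1.47 ± 0.11 SE, adjusted p = 4.36e-18). It also rose in regions 1, 4, 6 and 8 (0.89, 1.54, 0.67 and 1.01), and fell in regions 3, 5, 9, 10 and 11. Its lowest mean, 8.14 ± 4.98 CPM (SD, n = 3 sections), was in region 9, led by the hypothalamic peptide genes Oxt and Avp. Across 11 region means, Gabra4 and Gabrd had a Pearson r of 0.858 and a Spearman rho of 0.827 on log2(CPM + 1) values, a description over regions of the same sections.

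Gabrb1 also peaked in the thalamic region, with 144.6, 210.3 and 156.6 CPM, but region 9 followed closely with a mean of 142.7 ± 20.7 CPM and an overlapping range. Gabrb1 rose in the thalamic region (1.15 ± 0.09 SE, adjusted p = 8.2e-17) and also in regions 6 and 9 (0.42 and 0.82). Gabra5 had a mean of 37.9 ± 6.09 CPM there (0.77 ± 0.16 SE, adjusted p = 0.00012), below the 53.7 ± 5.68 CPM of region 1, which was led by cortical genes. Gabra5 also rose in regions 1, 4, 6, 8 and 9. With split counts the rise of Gabra5 in the thalamic region did not pass (0.32, adjusted p = 0.301). Gabra3 had 65.1 ± 4.82 CPM in the thalamic region (0.53 ± 0.10 SE, adjusted p = 1.67e-05). It rose by more in regions 1, 6 and 10 (0.73, 0.84 and 1.42), and by less in regions 3, 4 and 9. Gabra2 had 50.0 ± 10.7 CPM in the thalamic region, in the middle of the order of regions, and did not pass the threshold there (0.28 ± 0.12 SE, adjusted p = 0.0786). Gabrb2 rose on 34 counts (7.72 ± 4.24 CPM, 2.03 ± 0.51 SE, adjusted p = 0.00118), and without section 6 it did not pass (1.56, adjusted p = 0.104). It also rose in regions 1, 3, 4 and 6 (1.67, 1.90, 1.75 and 2.10).

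Of 77 comparisons of a member with the mean of the other regions, 35 rose and 23 fell. In these sections a called gene was common: the share of all genes called was 30.9% in the thalamic region, where 6 of 7 members rose, and it was 41.7, 44.0, 27.6, 45.7, 48.3 and 39.6% in regions 1 to 6 and 25.7, 39.5, 19.4 and 53.9% in regions 8 to 11. In region 5, with the oligodendrocyte gene Mobp among its leading genes, 5 members fell and none rose, and in region 11, led by the choroid plexus gene Ttr, 6 fell and none rose. Region 6 (led by Lmo3 and Nov) and region 4 (led by Lamp5) had 6 members that rose and none that fell.

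**Figure D3:**
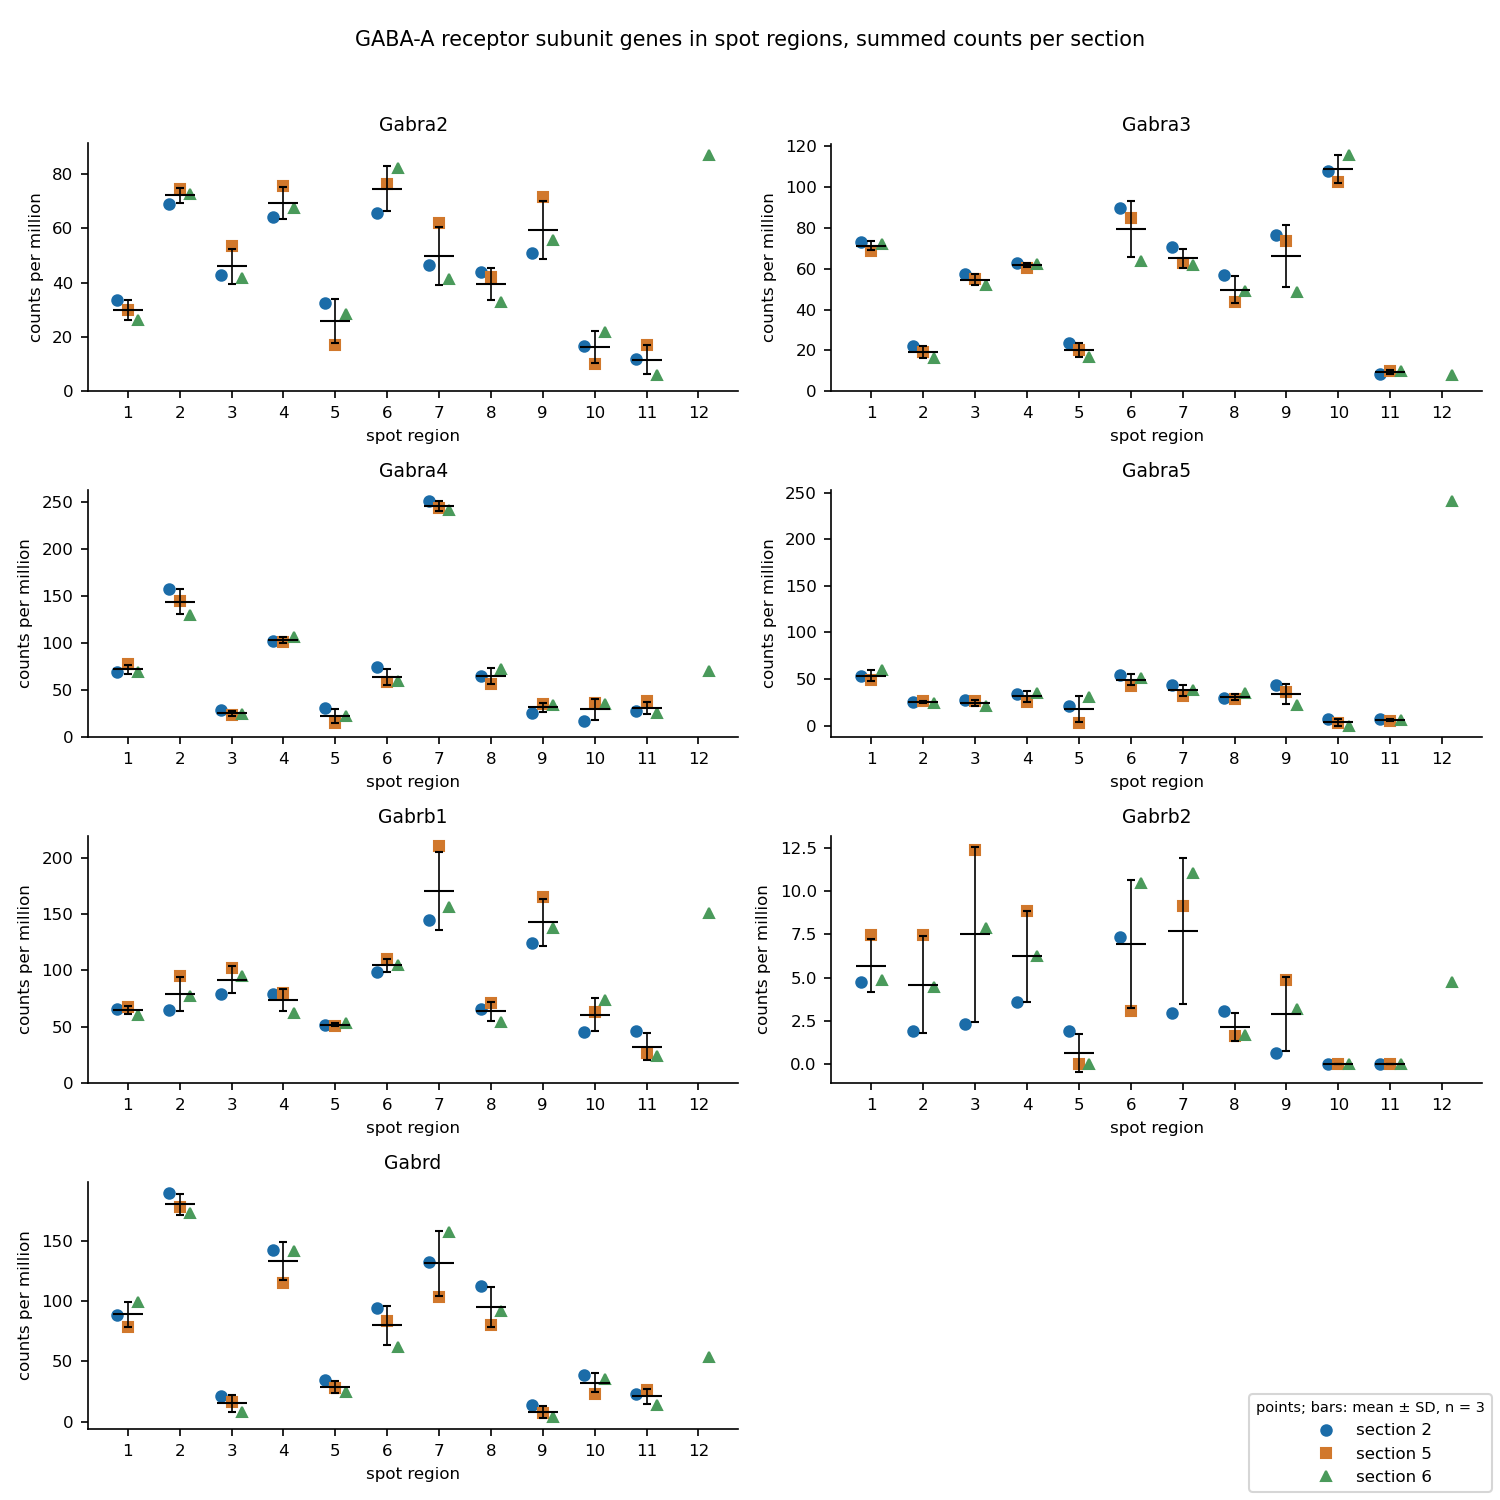
Summed level of each subunit gene (CPM, vertical axis) in spot regions 1 to 12 (horizontal axis), with 1 point per section and bars for the mean and SD of 3 sections. Gabra4 is highest in region 7, the thalamic region (245.6 CPM on average), Gabra3 in region 10 (108.8 CPM) and Gabrd in region 2 (180.2 CPM), and region 12 has a point for section 6 only.

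The thalamic region was also set against region 10 (215 spots), led by Pvalb and Six3 and with 9 or 10 of 10 GABA neuron markers detected, as the reticular thalamic nucleus is made of GABA neurons. Gabra3 had 107.7, 102.6 and 116.0 CPM in region 10, the highest of all regions, and 70.6, 63.0 and 61.7 CPM in the thalamic region. It was the member that was lower in the thalamic region (-0.81 ± 0.15 SE, adjusted p = 2.58e-05). Gabra4 was 245.6 ± 5.20 CPM in the thalamic region and 29.5 ± 11.04 CPM in region 10 (2.99 ± 0.18 SE, adjusted p = 2.53e-20), and Gabrd 131.1 ± 26.8 and 32.3 ± 8.01 CPM (1.94 ± 0.23 SE, adjusted p = 1.11e-09). Gabra5 had 4 counts in region 10 (3.50 ± 3.60 CPM) and was higher in the thalamic region (3.59 ± 0.53 SE, adjusted p = 2.34e-07), as were Gabra2 (1.41 ± 0.29 SE, adjusted p = 0.000197) and Gabrb1 (1.36 ± 0.18 SE, adjusted p = 2.57e-08). Gabrb2 had no count in region 10. With 3 counts taken as the limit there (2.28 CPM over the region), its pooled level of 7.17 CPM in the thalamic region was 3.14-fold that limit. This ratio leaves out the counting error of the thalamic level. In section 2 its thalamic level was 2.94 CPM from 6 counts (exact Poisson 95% interval 1.08 to 6.40). Its call was lost without section 6 (adjusted p = 0.185). Thus 6 members were higher and 1 was lower, where 16.7% of all genes were called. The summed level of 8 oligodendrocyte markers was 14220 to 14910 CPM in region 10 and 6080 to 6714 CPM in the thalamic region, with 8 of 8 detected in both, and its part in these differences was not tested.

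Within the thalamic region, spots were clustered again, and subregions 1, 2, 4 and 5, with at least 5 spots in each section, were tested over 6194 genes. Subregion 1 was led by Endou, Col27a1 and Cbln1, subregion 2 by Ramp3 and Prkcd, and subregion 5 by C1ql2. Subregion 4 was led by haemoglobin genes and then by Rasgrf2, Lypd1 and Calb2, and 90 of its 122 spots were in section 2, against 9 in section 5. Haemoglobin RNA comes from blood, and its part in the values of subregion 4 was not tested. Gabrb2 was too low to be tested here.

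In subregion 1, Gabra2 had 17.5, 14.4 and 17.2 CPM in sections 2, 5 and 6, the lowest of the 4 tested subregions in every section. It fell there by 1.74 on the log2 scale (SE 0.32, adjusted p = 6.05e-05). Gabra4 had 410.0, 346.3 and 372.9 CPM in subregion 1 and rose (0.84 ± 0.13 SE, adjusted p = 1.63e-06), and Gabrd had 202.1, 150.1 and 206.1 CPM and rose by less (0.44 ± 0.15 SE, adjusted p = 0.041). That rise of Gabrd was lost with split counts (0.05, adjusted p = 0.923), DESeq2 (adjusted p = 0.253), no filter (adjusted p = 0.0964), no section block (adjusted p = 0.335) and without section 2 or 5 (adjusted p = 0.49 and 0.268). In subregion 4 the alpha subunits ran the other way: Gabra3 had 99.3, 82.9 and 76.6 CPM (1.27 ± 0.26 SE, adjusted p = 0.000486), Gabra2 had 63.3, 62.2 and 76.6 CPM (0.86 ± 0.27 SE, adjusted p = 0.0441), and Gabra4 fell to 151.7, 41.4 and 247.4 CPM (-0.87 ± 0.16 SE, adjusted p = 0.000138). Gabra5 rose in subregion 4 (63.7 ± 18.0 CPM, 1.15 ± 0.35 SE, adjusted p = 0.0337) and Gabrd fell (81.9 ± 57.8 CPM, -0.95 ± 0.18 SE, adjusted p = 0.00017). The 3 rises in subregion 4 were lost with DESeq2 (adjusted p = 0.0533 for Gabra3, 0.258 for Gabra2 and 0.26 for Gabra5). With the GABA-A receptor genes kept in the clustering they were also smaller (0.78, 0.41 and 0.65, adjusted p = 0.261, 0.757 and 0.616). Subregion 4 itself was poorly recovered. Its Jaccard index (shared spots over spots in either) was 0.547 with those genes kept. With split counts it was 0.252, against 0.713 and 0.909 for subregions 1 and 5. The calls in subregion 4 were not among the 6 of 11 that could be tested with split counts. Gabra2 was lost in subregion 4 without the section block too (adjusted p = 0.0619), as well as without the filter (adjusted p = 0.0806). The section 5 values of subregion 4 rest on 9 spots with 1 to 4 counts of each of these genes.

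Subregion 5 joined high Gabra2 and high Gabrd with low Gabra3. Gabra2 had 102.5, 61.3 and 60.9 CPM there (1.10 ± 0.33 SE, adjusted p = 0.0162), Gabrd had 248.8, 153.2 and 282.3 CPM (0.80 ± 0.18 SE, adjusted p = 0.00109), and Gabra3 had 7.32, 30.6 and 22.1 CPM from 9 counts in all (-1.72 ± 0.43 SE, adjusted p = 0.00347). With split counts the rise of Gabrd did not pass (0.61, adjusted p = 0.0984). The Gabra3 values of subregion 5 overlapped the range of subregion 1 and lay below the values of subregion 4. No member was called in subregion 2. In all, 7 members rose and 4 fell in 24 comparisons. Of all genes, 9.49% were called in subregion 1 (3 of 6 members), 2.31% in subregion 2 (0 of 6), 5.91% in subregion 4 (5 of 6) and 12.8% in subregion 5 (3 of 6). Section 2 carried most of these calls: without it 2 of the 10 that could be tested remained, with Gabra3 in subregion 4 at 0.76 (adjusted p = 0.694) and Gabra4 in subregion 4 at -0.45 (adjusted p = 0.672). Gabrd and Gabra2 in subregion 4 were lost with fold changes about as large as before (-0.90, adjusted p = 0.204, and 1.04, adjusted p = 0.581), and in subregion 5 Gabra3 was at -1.33 (adjusted p = 0.0825), Gabrd at 0.66 (adjusted p = 0.0624) and Gabra2 at 0.68 (adjusted p = 0.444). Without section 5, 8 of 11 remained, and without section 6, 10 of 11.

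**Figure D4:**
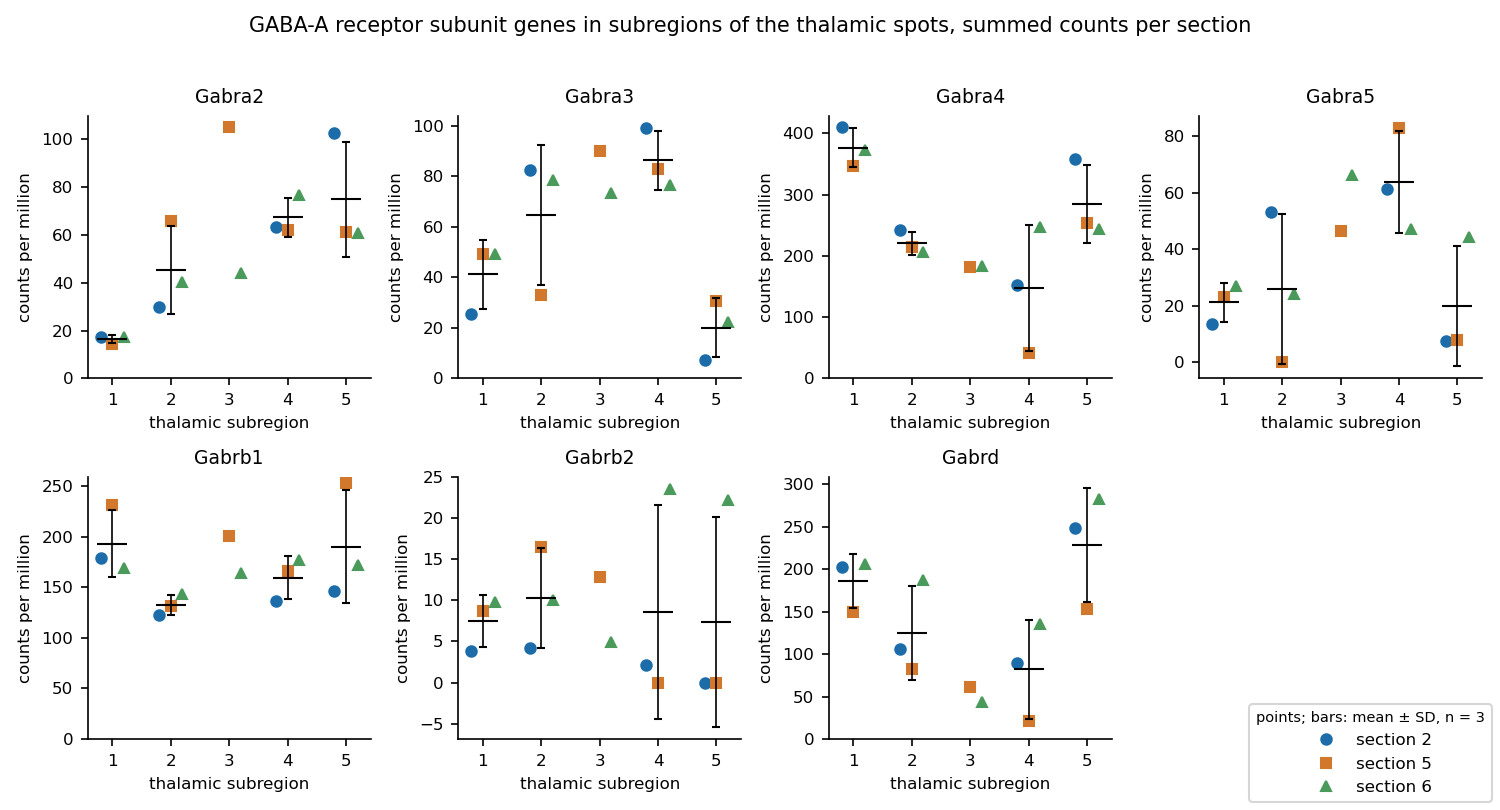
Summed level of each subunit gene (CPM, vertical axis) in subregions 1 to 5 of the thalamic spots (horizontal axis), with 1 point per section that had at least 5 spots and bars for the mean and SD where 3 sections had a value. Gabra2 is lowest in subregion 1 (16.4 CPM on average), Gabra3 is lowest in subregion 5 (20.0 CPM) and Gabra4 is highest in subregion 1 (376.4 CPM).

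The cells and the spots were set side by side by the log2 differences of 5888 genes that are not GABA-A receptor genes. Only the tested subregions were compared, so subregion 3, with Necab1 among its leading genes, was not a candidate. Of those compared, cluster 1 was most like subregion 1 (Pearson r across genes 0.494), cluster 3 most like subregion 4 (0.432) and cluster 4 most like subregion 5 (0.589). Each of these subregions was also most like that cluster. Subregion 3 had 105.3 and 44.0 CPM of Gabra2, 89.9 and 73.4 of Gabra3 and 61.7 and 44.0 of Gabrd in sections 5 and 6. Cluster 2 had its highest r, 0.342, with subregion 1. Genes are not independent replicates, and the pairing was made after the data were seen. In the first pair, Gabra2 was lower and Gabra4 higher in cells and in spots, and both passed the threshold in both. The call of Gabra4 in cluster 1 was lost with median-of-ratios scaling (adjusted p = 0.0536). Gabra3 was near 0 in cluster 1 (0.166 to 1.28 CPM) but had 25.3 to 49.1 CPM in subregion 1. Its log2 differences were -3.83 in cluster 1 and -0.42 in subregion 1, neither with a call. In the second pair, Gabra2 and Gabra3 rose in both, but their rises in subregion 4 were lost with DESeq2 and with the receptor genes kept in the clustering, and that of Gabra2 in cluster 3 without the animal block. Gabra4 and Gabrd were lower in subregion 4 with a call, and in cluster 3 with values that missed the threshold. Subregion 4 was itself poorly recovered with split counts, and its calls could not be tested there. In the third pair, Gabra2 rose in both, and Gabra3 was lower with a call in spots only. Gabra5 went opposite ways without a call in either (cluster 4 0.71, subregion 5 -0.60). Gabrd was higher, also with a call in spots only (cluster 4 0.55, subregion 5 0.80), which was lost with split counts. Whether cells and spots differ for these genes was not tested.

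**Figure D5:**
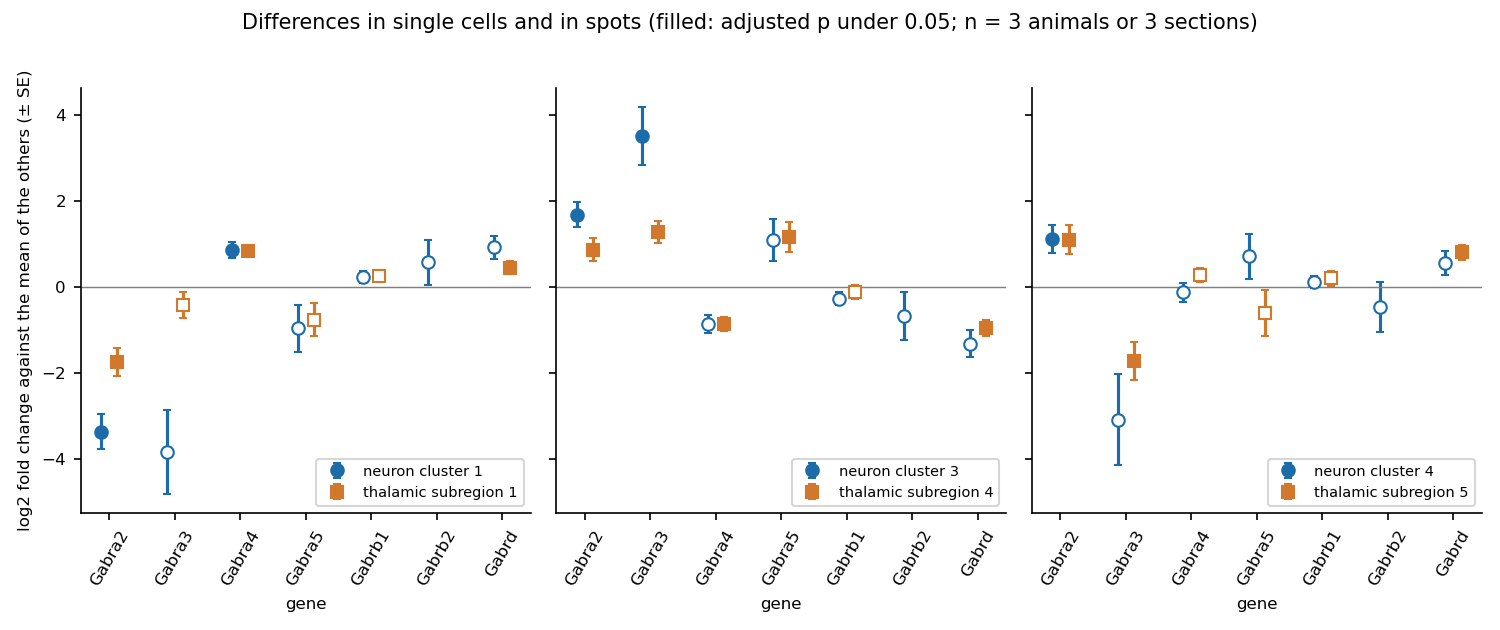
Log2 fold change of each subunit gene against the mean of the other clusters or subregions (vertical axis, bars for 1 SE) in neuron clusters 1, 3 and 4 beside the tested thalamic subregions most like them, filled where the adjusted p was under 0.05. Gabra2 is at -3.36 in cluster 1 and -1.74 in subregion 1, and Gabra3 is at 3.51 in cluster 3 and 1.27 in subregion 4.

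The anterior section had no replicate, so its thalamic spots were compared with the posterior ones by values only, with exact Poisson 95% intervals that cover counting error alone. Gabra4 was level, with 243.8 CPM (214.0 to 276.7) in anterior section 5, 251.5 (230.2 to 274.3) in posterior section 2 and 241.6 (218.9 to 266.0) in posterior section 6. Gabrb1 was higher in the anterior section, with 210.3 CPM (182.6 to 241.0) against 144.6 (128.6 to 162.1) and 156.6 (138.4 to 176.5). Gabrd was lower there, with 103.6 CPM (84.5 to 125.8) against 132.4 (117.1 to 149.2) and 157.2 (139.0 to 177.1), where the first 2 intervals overlapped. The intervals of Gabra2, Gabra3, Gabra5 and Gabrb2 in the anterior section overlapped those of at least 1 posterior section. Outside the thalamic region, section 5 also had the highest Gabrb1 in spot region 2 (95.4 CPM, against 64.6 and 77.2 in sections 2 and 6). The same held in region 3 (101.9 CPM, against 79.1 and 94.7) and, by less, in regions 1 (67.6 CPM, against 65.7 and 60.7) and 4 (79.7 CPM, against 79.2 and 62.6). In region 6 section 5 also had the highest value, 109.9 CPM. Among regions 1 to 6 it had the lowest in region 5 only (50.7 CPM, against 51.4 and 53.6). The subregions held different shares of the thalamic spots in the 3 sections, with 76 of the 200 anterior spots in subregion 3, which had none in section 2. In subregion 3, which was not tested, Gabrb1 had 200.4 and 163.9 CPM and Gabrd 61.7 and 44.0 CPM in sections 5 and 6. Within subregion 1, section 5 also had the highest Gabrb1 (230.9 CPM, against 178.8 and 169.3) and the lowest Gabrd (150.1 CPM, against 202.1 and 206.1). So it did in subregion 5 (Gabrb1 252.8 CPM, against 146.4 and 171.6, and Gabrd 153.2 CPM, against 248.8 and 282.3). In subregions 2 and 4 its Gabrb1 lay between those of the other sections. The part of the makeup in these differences was not tested.

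Of the 12 other GABA-A receptor genes, 5 could be tested in the neuron clusters. In cluster 2, where 7.16% of all genes were called, 2 of the 5 rose, among them Gabrg3 (gamma-3, 3.41 ± 0.56 SE, adjusted p = 0.00257). In cluster 4, where 10.3% were called, 2 fell, among them Gabrg3 by 2.87 on the log2 scale (SE 0.85, adjusted p = 0.0461). None was called in clusters 1 and 3 against the others. In the thalamic region, where 30.9% of all genes were called, 2 of 7 tested genes rose and none fell. Among those that rose was Gabrg1 (gamma-1, 44.1 ± 5.59 CPM, 0.81 ± 0.13 SE, adjusted p = 1.23e-06). Against region 10, where 16.7% were called, 4 of 7 were higher in the thalamic region, among them Gabrg1 (1.15 ± 0.29 SE, adjusted p = 0.00275). Gabrq (theta) was lower (-1.96 ± 0.64 SE, adjusted p = 0.0246). In subregion 1, where 9.49% were called, 1 of 4 tested genes rose and 1 fell, the latter being Gabrg1 (-1.32 ± 0.35 SE, adjusted p = 0.00775).

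Genes that act around the receptors were read from lists. Of 23 tested genes of the inhibitory synapse and of GABA-A receptor trafficking, 1 rose in cluster 3: Iqsec3, a scaffold partner at inhibitory synapses (3.12 ± 0.61 SE, adjusted p = 0.0212). In the sections it rose in subregion 4 (1.61 ± 0.31 SE, adjusted p = 0.000191) and fell in subregion 5 by 2.56 on the log2 scale (SE 0.57, adjusted p = 0.000689). Hap1, a carrier of GABA-A receptors to the synapse, rose in subregion 4 (1.67 ± 0.19 SE, adjusted p = 1.24e-09) and fell in subregions 1 and 5 (-0.80 and -1.06, adjusted p = 0.0134 and 0.0139). In cluster 4, where 10.3% of all genes were called, 5 genes of that list rose and 2 fell; among those that rose was Dbi, whose peptide binds the receptors' benzodiazepine site (2.03 ± 0.23 SE, adjusted p = 8.1e-05), and in cluster 2 5 fell, among them Dbi (-1.38 ± 0.27 SE, adjusted p = 0.00646), and none rose. None of the list was called in cluster 1. In the thalamic region 6 of 26 rose and 4 fell, where 30.9% of all genes were called. The median log2 fold change of the list was -0.01 in cluster 3 against 0.04 for all genes, and -0.28 in cluster 4 against -0.21.

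Of 8 tested chloride transport genes, Slc12a5 (KCC2, the exporter that keeps neuronal chloride low) rose in cluster 1 (0.89 ± 0.16 SE, adjusted p = 0.0121), fell in cluster 4 by 1.66 on the log2 scale (SE 0.19, adjusted p = 0.000112), and the other 7 were not called in any cluster against the others. In spots it rose in the thalamic region (0.38 ± 0.07 SE, adjusted p = 7.2e-06) and fell in subregion 5 (-0.46 ± 0.15 SE, adjusted p = 0.0349). The GABA-B receptor genes Gabbr1 and Gabbr2 rose in cluster 2 (0.58 and 0.83, adjusted p = 0.0174 and 0.0369) and in the thalamic region (0.73 and 1.55, adjusted p = 6.69e-14 and 3.67e-25), and the other 2 tested genes of their list were not called in either. Among genes of GABA uptake and breakdown, Slc6a11, a GABA transporter of astrocytes, rose in the thalamic region (1.83 ± 0.08 SE, adjusted p = 1.6e-28) and in subregion 4 (0.68 ± 0.14 SE, adjusted p = 0.000685) and fell in subregion 5 (-1.07 ± 0.19 SE, adjusted p = 2.23e-05). No gene of this list was called in the neuron clusters. Of the glycine receptor genes, Glra2 rose in the thalamic region (1.67 ± 0.17 SE, adjusted p = 1.19e-12) and in subregion 4 (0.96 ± 0.29 SE, adjusted p = 0.0331), and none of 4 tested was called in a neuron cluster. Of the neurosteroid synthesis genes, 2 could be tested in cells, without a call, and Tspo, 1 of 3 tested in spots, fell in the thalamic region (-0.77 ± 0.24 SE, adjusted p = 0.0105).

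Genes most like the members in pattern were ranked by the Pearson correlation of log2(CPM + 1) values, over the 12 sums of 4 neuron clusters in 3 animals (7494 genes) and over 11 spot regions (7672 genes). Gabra3 was most like Gabrg3 in the neurons (r = 0.952), followed by Necab1 (0.941) and Syt5 (0.939). For Gabra4 the highest value was Atp2b1 (0.974), for Gabrd it was Bcan (0.975), and for Gabra5 it was Erp29 (0.943). Gabrb2 was most like Ctu2 (0.980), and Gabrb1 reached 0.876 with Adamts15. Over the spot regions the first genes were Thoc1 for Gabra2 (0.941), Fam155a for Gabra3 (0.984), Pdp1 for Gabra4 (0.943), Rfx7 for Gabra5 (0.953), Col25a1 for Gabrb1 (0.967) and Dyrk1a for Gabrb2 (0.95). The sums share animals and cells, and the regions share sections and their cell makeup, so these values describe the pattern only.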

How the data were processed

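Both deposited expression tables hold counts that were not normalized, by gene and well for the cells and by gene and spot for the sections. The deposited well table and spot list give, per the file headers, the animal of each well and the section of each spot (other unit). Per the labels' protocols, cells were barcoded at reverse transcription and PCR products pooled by plate, and the 10 µm sections had a permeabilization of 24 min. The submitters' processing notes name Seurat and NCBIM37 for the cells and Space Ranger, Seurat, NCBIM37 and mm10 for the sections. The aligner, the counting step and whether reads or molecules were counted are not given in the sources used here.

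Nothing ties the 14 cell samples of the labels to the 14 plates, so the animal was the replicate. Of 912 cells by the rule, 8 were left out because the date in their source name was not that of most wells of their animal. Counts without the 19 GABA-A receptor genes were scaled to 10000 and clustered by the Leiden method (resolution 0.5, 30 principal components of 2000 variable genes, 15 neighbours, scanpy 1.11.5 in Python 3.11.15). No doublets were called. Clusters were thus drawn from other genes of the same cells, and a split of the counts was the alternative. Sums of at least 5 cells or spots entered edgeR's quasi-likelihood F test (edgeR 4.0.16 under R 4.3.3) after filterByExpr and TMM scaling, with a block for the animal or section, each against the equally weighted mean of the others, with Benjamini-Hochberg adjustment over all genes tested. Residuals of sums from 1 animal had a median correlation of 0.0708 against -0.0463 for other pairs, and those from 1 section 0.0865 against -0.0539 in regions and 0.0936 against -0.0441 in subregions. The test was tried on simulated counts first. Alternatives were DESeq2 1.42.0, other scaling, no filter, no block, each animal or section left out, other cell and spot minimums and other clusterings.

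All 7 members were named in every comparison, at most 4 genes of each of 7 lists by the smallest adjusted p, and the 3 genes most alike in pattern were sought among those with a mean of at least 20 CPM. The members and lists were chosen with earlier results of these data known. Members in the RefSeq promoter table numbered 6 of 7. Some results on other genes are not reported here.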

Additional observations from a re-analysis of the deposited data

Results flagged for a closer look

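Spot region 12 (60 spots, all in section 6, led by Neurod6 and Cabp7) entered no comparison, since no other section held it. In that region Gabra5, the alpha subunit known from hippocampal pyramidal neurons, had 241.2 CPM from 152 counts, above the highest section value of any tested region, 59.8 CPM in region 1. Gabra2 had 87.3 CPM there from 55 counts, against a highest section value of 82.1 CPM in the tested regions. Gabra3 (7.93 CPM) was below the lowest tested value. With 1 section there is no replicate.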

How the results depend on the processing

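No call of a member turned to the opposite direction under any alternative run, and all 6 calls in the neuron clusters kept their direction. Against the other neuron clusters, where 5 members rose and 1 fell, the number that fell was 5 with DESeq2, 3 without the filter, 3 with counts split between clustering and testing, and 2 with median-of-ratios scaling, with the GABA-A receptor genes kept in the clustering, with at least 2000 genes per cell or with all wells kept. Without the animal block 3 rose, and 4 of the 6 calls remained. Leaving out an animal gave 0 to 8 that rose and 0 to 5 that fell, and in pairs of clusters 0 to 9 and 1 to 7. Without the filter 7 rose in pairs. Over all genes, cluster 1 had 142 calls, and 19 to 878 under the alternatives, the most without animal 1 and the fewest without animal 3. In spot regions 50 to 57 of 58 calls remained under the alternatives that tested all of them. The split of counts recovered fewer regions and gave 21 that rose and 14 that fell of 54 comparisons, and it had no region 10. Without the section block 53 of 58 calls remained. In thalamic subregions, 3 rose with DESeq2, 8 of 11 calls remained with the GABA-A receptor genes kept in the clustering, 9 of 11 calls remained without the section block, and with split counts 2 rose and 2 fell of 15 comparisons. Leaving out a section gave 1 to 6 that rose and 1 to 4 that fell. The causes of these changes were not tested, apart from the fewer comparisons.

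Shares of cells with a count moved with depth. For Gabra2 they were 12.9, 35.4 and 63.1% in clusters 1 to 3 without thinning, and 9.67, 20.5 and 13.8% in clusters 2 to 4 at 2000 counts per cell. For Gabra3 they were 2.31, 25.3, 27.3 and 3.45% in clusters 1 to 4 without thinning and 5.83% in cluster 3 at 2000 counts.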
